A study of Mesocricetus auratus with 10 samples.

Results

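The 8 genes PFKL, TPI1, GAPDH, PKLR, KHK, PDK1, PDK2 and PDK4, of hepatic glycolysis, fructose use and pyruvate entry into mitochondria, were followed in liver of the golden hamster, Mesocricetus auratus, after a high fat diet (HFD). The animals were males. Members were all non-control probes that carry one of these 8 gene names, which gave 45 of the 116452 probes on the array, and all 8 names were present. Liver RNA of each of 10 HFD animals was hybridised against 1 common RNA, the pooled livers of 10 hamsters on a standard diet (STD). This was done on 2 arrays per animal, with the dyes swapped, and the 20 arrays stand for 10 replicates and 1 control RNA. The labels give no strain, age, diet composition or feeding time, and the pooled controls carry no value of their own animals. The markers of liver parenchyma on the array, albumin and transthyretin among them, were measured in both RNAs.

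Glycolysis splits glucose into pyruvate in a chain of enzymes. Phosphofructokinase commits the sugar to the chain, triosephosphate isomerase and glyceraldehyde-3-phosphate dehydrogenase handle the 3-carbon intermediates, and pyruvate kinase makes pyruvate at the end. Ketohexokinase lets fructose enter below the phosphofructokinase step. Pyruvate dehydrogenase turns pyruvate into acetyl-CoA, the starting material of hepatic fat synthesis, and the pyruvate dehydrogenase kinases (PDK) switch that complex off by phosphorylation. In liver, PKLR is a known target of the carbohydrate-sensing factor encoded by MLXIPL, and PDK4 is known as a gene of fasting and fatty acid use.

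Values are log2 ratios, HFD over pool, the mean of both dye orientations of an animal, so that 1 unit is a doubling and 0 is equality with the pool. Where a gene had several probes, the brightest stood for it and is called probe 1. P-values are two-sided, from limma, adjusted by the Benjamini-Hochberg method over all 13931 genes tested (or over all 105917 probes where single probes are given), with 0.05 as the threshold. The ratio is tested against a pool taken as free of error, so that the p-values measure how closely the 10 HFD animals sided with each other and leave out the spread among STD animals. In whole liver, fewer cells of a type and less RNA per cell cannot be told apart.

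Of the 8 genes, 3 rose (PFKL, TPI1 and PDK2), 2 fell (GAPDH and PDK4), and PKLR, KHK and PDK1 did not pass the test. These 5 called genes stand against 59.9% of all tested genes, 31.2% called higher and 28.7% lower, so that the members' share is near the background. Of the 8 genes, the same 5 and no others had the same sign in all 10 animals, 3 higher and 2 lower. Among all tested genes, called or not, 31.3% had this (16.2% higher and 15.1% lower). A call and a shared sign rest on the same 10 values and are not independent. Among the 44 member probes that passed the filter, 9 were called higher and 9 lower (40.9%), against 54.2% of all probes (26.3% higher and 28% lower). The median of the 8 mean ratios was 0.03, beside 0.01 for all genes. The values were far from uniform along the chain. TPI1 lay above 0 and its neighbour GAPDH below it, on probes of opposite direction by the reading given below.

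**Figure D1:**
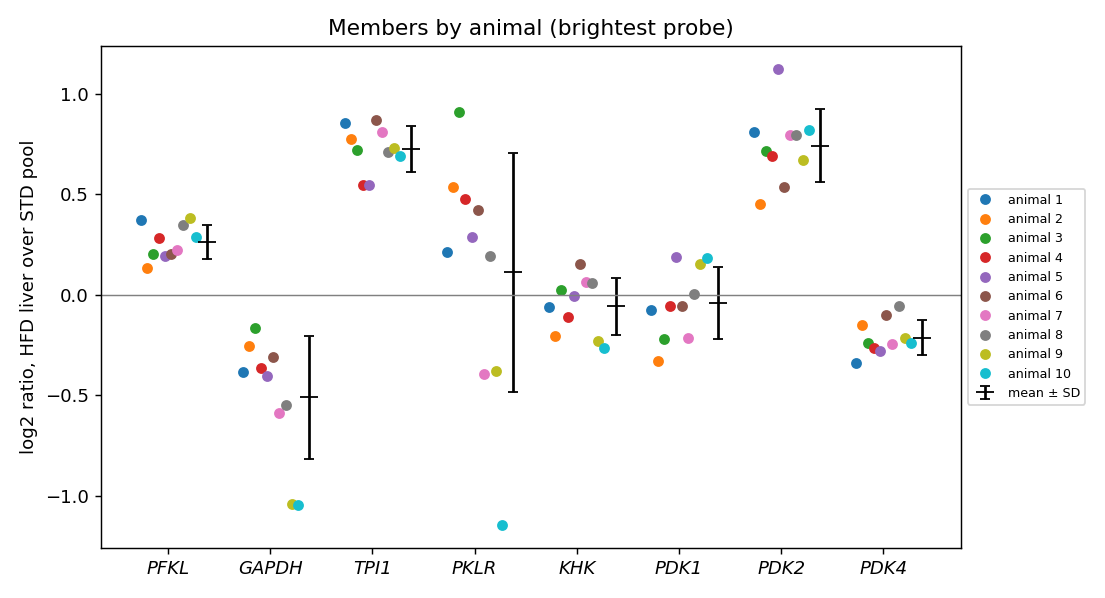
Log2 ratio of HFD liver over the STD pool (vertical axis) for the brightest probe of each of the 8 genes, with 1 point for each of the 10 animals and the mean ± SD in black. TPI1 and PDK2 lie above 0 and GAPDH and PDK4 below 0 in every animal, whereas PKLR spreads from -1.14 to 0.91.

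The libraries differed in ways that touch these genes. Across the probes that passed the filter, the 6 arrays of animals 5 to 10 with HFD in Cy3 correlated with each other at 0.83 to 0.91. They correlated with the other 14 arrays at 0.32 to 0.76, and those 14 correlated among themselves at 0.10 to 0.74. By these ranges the 6 were closely alike, while the 14 were no closer to each other than to the 6. The 6 share 1 dye orientation, whereas the 14 hold both. The lowest correlation was 0.45 among all arrays with HFD in Cy5 and 0.37 among all with HFD in Cy3. The value of 0.10 thus came from arrays of unlike orientation. In a fit to those 14 arrays alone, with the animal as a random block, the means were 0.25 for PFKL, 0.74 for TPI1, -0.35 for GAPDH, 0.67 for PDK2 and -0.21 for PDK4, all past the threshold in limma. No spot was saturated, and the share of probes above background in HFD RNA ran from 74.8% to 97.2% per array. Of 11 measured hepatocyte markers, 9 fell and none rose, with a median log2 ratio of -0.41. Their mean per animal lay between -0.80 in animal 9 and -0.25 in animal 2. Of 8 macrophage markers 5 rose and 3 fell, of 9 stellate cell and fibroblast markers 3 rose and 2 fell, and of 7 endothelial markers 3 rose and 2 fell. None of 4 cholangiocyte markers passed the test, all 6 lymphocyte and neutrophil markers fell, 2 of 3 red blood cell markers fell, and of 8 muscle and adipose markers 3 rose and 3 fell. The part of these shifts in the results below was not tested.

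The probes are 60 bases long, and what a probe reads depends on its strand. The sequences that matter most for the results are printed 5′ to 3′ as the array carries them, in lower case, with capitals for the run that a probe shares with another probe of its gene on the same or the opposite strand. The first are those of PFKL, where 2 sets of probes on opposite strands gave different answers.
PFKL probe 3: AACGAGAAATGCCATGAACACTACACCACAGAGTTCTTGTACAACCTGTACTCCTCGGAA
PFKL probe 9: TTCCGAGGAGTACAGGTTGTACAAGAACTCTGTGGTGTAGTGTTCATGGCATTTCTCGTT
PFKL probe 2: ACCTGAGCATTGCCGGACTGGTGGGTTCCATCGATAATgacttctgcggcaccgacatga
PFKL probe 8: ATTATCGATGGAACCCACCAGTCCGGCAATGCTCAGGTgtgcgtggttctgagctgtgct
PFKL probes 3 and 9 are exact reverse complements over all 60 bases, and probes 2 and 8 are complementary over 38 bases. PFKL probes 1 to 4 come from 2 assembled contigs, and probes 5 to 10 from another.

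PFKL encodes the liver type of phosphofructokinase. On probe 1 its log2 ratio was lowest at 0.14 in animal 2, had a median of 0.25 and was highest at 0.38 in animal 9. All 10 animals were above 0, and their spread was narrow. The mean was 0.26 ± 0.08 (SD, n = 10), a 1.2-fold rise with an adjusted p of 5.62e-06 in limma. All 4 probes of the first strand were called higher, with means between 0.17 and 0.32. None of the 6 probes of the opposite strand was called, with means between -0.06 and 0.05 and adjusted p between 0.111 and 0.828 in limma.

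Paired within animals, the average of the first-strand probes was 0.26 ± 0.07 and that of the opposite-strand probes 0.00 ± 0.06. The difference was 0.26 ± 0.10, and lay between 0.09 and 0.44 in the 10 animals, above 0 in each. In the fully complementary pair, probe 3 gave 0.17 and probe 9 gave 0.02, with the first the higher in 8 of 10 animals. In the partly complementary pair, probe 2 gave 0.32 and probe 8 gave -0.03, with the first the higher in 10 of 10. This split by strand was noticed after the values were seen, and it is given with no test. Averaging all 10 PFKL probes left the call in place but gave a mean of 0.11. Probes 1 to 4 of the first strand and probes 5, 6 and 7 of the opposite strand were well above background on all 20 arrays in both RNAs. Probe 8 was so on 18 arrays in the HFD RNA and on 20 in the pool, probe 9 on 17 and 13, and probe 10 on 8 and 5.

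No source used here states which strand of a contig is the messenger. From general knowledge of the encoded enzymes, and not from a deposited file, the printed PFKL probes 2 and 3 read in the coding direction, as do the TPI1, KHK and PDK2 probes printed below. By the same reading the printed GAPDH and PKLR probes and the printed PDK4 probe run against the coding direction. Read this way, the direction of change went with the strand of the printed probes for the called genes, but not for every printed probe. The called rises of PFKL, TPI1 and PDK2 were on probes in the coding direction, and the called falls of GAPDH and of PDK4 probe 2 on probes against it. PDK4 probe 1, which stood for the gene, is not printed and its direction was not read. KHK and PKLR, 1 of each direction, did not pass. The printed PFKL probes 8 and 9, against the coding direction by this reading, gave -0.03 and 0.02 and were not called. No PDK1 probe is printed, and this pattern was noticed after the values were seen. What the probes of either direction captured was not tested, so that rose and fell describe the signal of these probes, and a change of the messenger cannot be told apart from one tied to probe strand.

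TPI1 encodes triosephosphate isomerase, which interconverts both 3-carbon sugars made when fructose bisphosphate is split. It had 1 probe on the array, shown because the whole result rests on it.
TPI1 probe 1: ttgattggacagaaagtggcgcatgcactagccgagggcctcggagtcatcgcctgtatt
The TPI1 log2 ratio was lowest at 0.55 in animals 4 and 5, had a median of 0.73 and was highest at 0.87 in animal 6. Every animal lay well above 0 and none stood apart. TPI1 rose 1.65-fold, with a mean of 0.73 ± 0.11 (SD, n = 10) and an adjusted p of 4.23e-09 in limma. The mean was 0.62 with HFD in Cy5 and 0.83 with HFD in Cy3. With no second probe, the value has no check within the array.

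GAPDH, the dehydrogenase that follows triosephosphate isomerase and is often used as a reference gene, gave ratios on the other side of 0, on probes of the other strand by the reading above. Its brightest probes overlap and come from different contigs, and are shown because they gave nearly the same values.
GAPDH probe 1: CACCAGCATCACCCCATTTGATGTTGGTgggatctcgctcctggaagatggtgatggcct
GAPDH probe 2: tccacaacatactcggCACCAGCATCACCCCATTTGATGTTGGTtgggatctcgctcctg
The capitals mark 28 shared bases. On probe 1 the GAPDH log2 ratio was lowest at -1.05 in animal 10, had a median of -0.39 and was highest at -0.16 in animal 3. All 10 animals were below 0, and animals 9 and 10 lay far under the other 8. The mean was -0.51 ± 0.31 (SD, n = 10), a 1.42-fold fall with an adjusted p of 0.000157 in limma.

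All 7 GAPDH probes were called lower, with means between -0.61 and -0.47, and their animal profiles correlated with each other at 0.869 to 0.997. Animals 9 and 10 were the lowest and animal 3 the highest on 7 of 7 probes. Between animals, the GAPDH ratio had a larger SD than 96.9% of tested genes. On the 6 arrays of animals 5 to 10 with HFD in Cy3 the mean was -0.75, and on the arrays of animals 1 to 4 in that orientation it was -0.17. With HFD in Cy5 it was -0.56 in animals 5 to 10 and -0.42 in animals 1 to 4. The hepatocyte marker mean was also lowest in animals 9 (-0.80) and 10 (-0.70), and the part of that in the GAPDH values was not tested. Copies of GAPDH elsewhere in the genome could not be separated from the gene with these probes.

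PKLR encodes the pyruvate kinase of liver and red blood cells, which makes pyruvate at the last step. It had 13 probes, the most of any of the 8 genes. A pair that overlaps by 56 bases, and a probe that was spotted under 2 identifiers with the same sequence, are shown because they measure how well the array repeats itself.
PKLR probe 1: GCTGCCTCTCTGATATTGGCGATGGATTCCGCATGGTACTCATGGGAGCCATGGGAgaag
PKLR probe 2: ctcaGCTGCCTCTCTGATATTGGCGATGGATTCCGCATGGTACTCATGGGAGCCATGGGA
PKLR probe 7: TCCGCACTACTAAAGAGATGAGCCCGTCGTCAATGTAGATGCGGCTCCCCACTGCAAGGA
PKLR probe 11 has the same sequence as probe 7. On probe 1 the PKLR log2 ratio was lowest at -1.14 in animal 10, had a median of 0.25 and was highest at 0.91 in animal 3. Animals 7, 9 and 10 were below 0 and the other 7 above it. The mean was 0.11 ± 0.59 (SD, n = 10), with an adjusted p of 0.560 in limma and a 95% interval from -0.31 to 0.54, which holds changes of either sign.

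None of the 13 PKLR probes was called. The probes repeated each other closely. Their animal profiles correlated at 0.895 to 0.995, animals 7, 9 and 10 were below 0, animal 3 the highest and animal 10 the lowest on all 13, and probe SDs ran from 0.25 to 0.59. The identical probes 7 and 11 differed within an animal with an SD of 0.10, and the identical probes 6 and 10 with an SD of 0.07. The spread of PKLR between animals was larger than that of 99.8% of tested genes.

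The PKLR mean also differed between sets of arrays, which hold different animals. With HFD in Cy3 it was -0.33 on the 6 arrays of animals 5 to 10 and 0.75 on those of animals 1 to 4. With HFD in Cy5 it was -0.004 in animals 5 to 10 and 0.31 in animals 1 to 4. In the fit to the 14 arrays without those 6 the PKLR mean was 0.41 and passed the test (adjusted p = 0.00473 in limma). The arrays with HFD in Cy3 in that fit came from animals 1 to 4 alone, so that animals and arrays cannot be told apart. Without animal 10 it was 0.25 and without animal 3 it was 0.02, and neither passed. With HFD in Cy5 the mean was 0.12 and with HFD in Cy3 0.10.

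**Figure D2:**
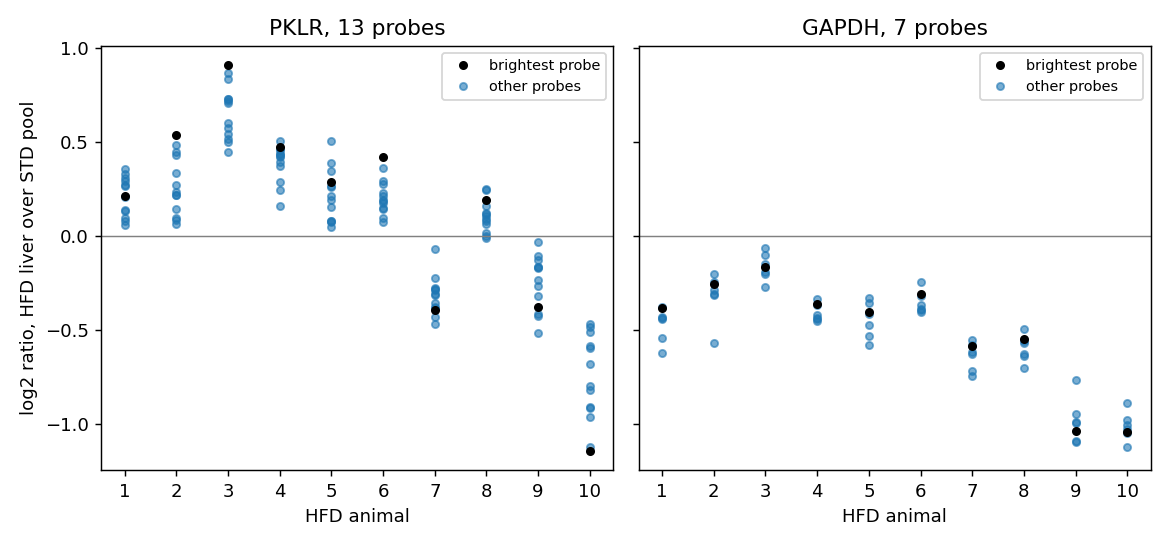
Log2 ratio of HFD liver over the STD pool (vertical axis) in each of the 10 animals (horizontal axis) for the 13 PKLR probes (left) and the 7 GAPDH probes (right), with the brightest probe in black and the others in blue. The probes of a gene give a similar order of animals, with animal 10 lowest for PKLR and animals 9 and 10 lowest for GAPDH.

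PKLR and GAPDH, so different in mean, ranked the animals alike. Over the 10 animals their log2 ratios correlated with Pearson's r = 0.91 (permutation p = 2e-05, adjusted p = 0.00056 over the 28 pairs of the 8 genes) and Spearman's rho = 0.96 (permutation p = 7e-05, adjusted p = 0.00196), two-sided with 100000 resamples. Leaving out the 2 animals farthest from the GAPDH median, animals 9 and 10, left r at 0.91. Animal 3, the highest for PKLR, stayed in. Within the arrays with HFD in Cy5 r was 0.86, within those with HFD in Cy3 it was 0.94, in scan session 1 it was 0.94 (10 arrays) and in scan session 3 it was 0.94 (9 arrays). Scan session 2 held 1 array and gives no value. These subsets hold the same animals measured again and are not independent of each other. No other pair among the 28 passed.

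This pair was singled out after its values were seen, and both ratios share the same arrays and the same pool. Among the 13930 other genes, 19 (0.136%) followed PKLR at least as closely as GAPDH did, and 76 (0.546%) followed GAPDH at least as closely as PKLR did. The 3 genes with the smallest root mean square difference from GAPDH over the 10 animals were PON1 (0.0625), which encodes a liver-secreted esterase, FETUB (0.115), which encodes a liver-secreted plasma protein, and QDPR (0.118), which encodes a pteridine reductase. Their means were -0.51, -0.51 and -0.56. For TPI1 the nearest genes were TSPAN4 (0.0788), DPP7 (0.085) and UAP1L1 (0.0988), and those near PDK2 included NQO1 (0.154) and NLRC3 (0.16).

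**Figure D3:**
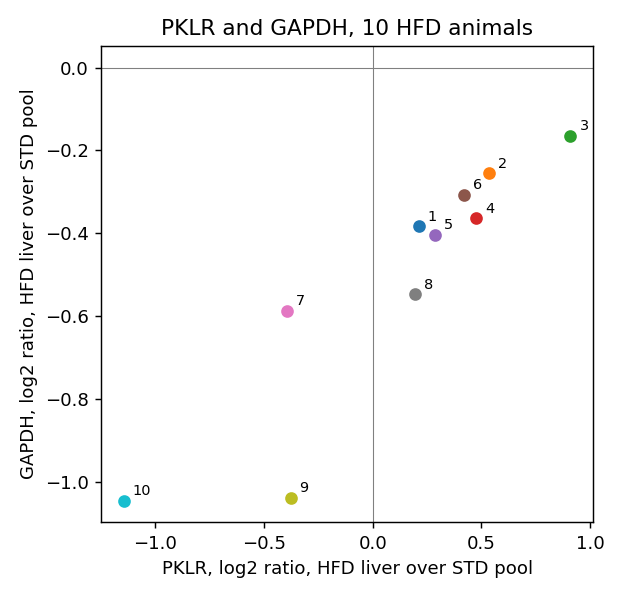
Log2 ratio of GAPDH (vertical axis) against that of PKLR (horizontal axis) in the 10 HFD animals, brightest probes, with each point labelled by its animal. Animals 7, 9 and 10 lie to the left of 0 for PKLR and are, with animal 8, the lowest for GAPDH.

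KHK encodes ketohexokinase, the kinase that opens hepatic fructose use. Its brightest probe is given so that the measurement behind a value near 0 can be identified.
KHK probe 1: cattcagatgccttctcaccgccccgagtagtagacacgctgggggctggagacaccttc
The KHK log2 ratio was lowest at -0.26 in animal 10, had a median of -0.03 and was highest at 0.15 in animal 6. Animals lay on both sides of 0, with 4 above and 6 below. The mean was -0.06 ± 0.14 (SD, n = 10), with an adjusted p of 0.246 in limma and a 95% interval from -0.16 to 0.04. None of the 4 KHK probes was called, and their animal profiles correlated at 0.95 to 0.99. The dye orientations gave different answers, since the mean was -0.16 with HFD in Cy5 (adjusted p = 0.00753 in limma) and 0.04 with HFD in Cy3.

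The 3 PDK members had different means, but the difference between PDK1 and PDK4 kept its call in only 13 of 21 alternative settings. PDK2 and PDK4 are printed with 1 probe each, PDK2 by its brightest and PDK4 by the probe with the larger change.
PDK2 probe 1: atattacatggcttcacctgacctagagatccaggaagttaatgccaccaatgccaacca
PDK4 probe 2: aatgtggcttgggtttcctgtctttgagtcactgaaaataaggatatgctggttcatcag
PDK2 encodes a kinase that is widely expressed and held in check by pyruvate. On probe 1 its log2 ratio was lowest at 0.45 in animal 2, had a median of 0.76 and was highest at 1.13 in animal 5. All 10 animals lay above 0. The mean was 0.74 ± 0.18 (SD, n = 10), a 1.67-fold rise with an adjusted p of 1.10e-07 in limma.

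The size of the PDK2 rise depended on the probe and the dye. The mean of probe 1 was 0.47 with HFD in Cy5 and 1.01 with HFD in Cy3. It was 1.11 on the 6 arrays of animals 5 to 10 with HFD in Cy3, and 0.67 in the fit to the other 14. Probe 2, from another contig, gave 0.19 ± 0.18 (SD, n = 10), above 0 in 9 of 10 animals and at -0.23 in animal 1, with an adjusted p of 0.00518 in limma. The animal profiles of both PDK2 probes were not alike, with a correlation of -0.29. Averaged over both probes the rise was 0.47.

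PDK4, the kinase best known from fasting, fell. On probe 1 its log2 ratio was lowest at -0.34 in animal 1, had a median of -0.24 and was highest at -0.06 in animal 8. On probe 2 it was lowest at -0.81 in animal 8, had a median of -0.53 and was highest at -0.22 in animal 2. Both PDK4 probes were below 0 in all 10 animals. The mean was -0.21 ± 0.09 on probe 1 (adjusted p = 5.11e-05) and -0.56 ± 0.17 on probe 2 (adjusted p = 1.09e-06), both from limma over all probes with n = 10. Over all genes, PDK4 had an adjusted p of 3.70e-05 in limma.

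PDK4 was dim in the HFD livers. Probe 1 was well above background on 19 arrays in the HFD RNA and probe 2 on 15, against 20 in the pool for both. The size of the fall changed with the processing as a whole. On probe 1 it was -0.56 from the processed signals of the scanner software and -0.25 with no background correction, and in the authors' deposited table the mean log2 ratios were -0.49 for probe 1 and -1.37 for probe 2. The direction was the same in each of these settings. The profiles of both PDK4 probes over animals correlated at -0.19, so that the order of the animals was not shared.

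PDK1 encodes a kinase known as a hypoxia-responsive gene. Its log2 ratio on probe 1 was lowest at -0.33 in animal 2, had a median of -0.06 and was highest at 0.19 in animal 5. The animals lay on both sides of 0, and the mean was -0.04 ± 0.18 (SD, n = 10) with an adjusted p of 0.495 in limma and a 95% interval from -0.17 to 0.09. Of its 5 probes that passed the filter, probes 4 and 5 were called higher, at 0.12 and 0.15 (adjusted p = 0.023 and 0.00325 in limma), and none lower. Probe 6 lacked a value on 1 array and was not tested. With HFD in Cy5 probe 1 gave -0.16 (adjusted p = 0.0188 in limma) and with HFD in Cy3 0.08.

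The PDK genes were set against each other within an animal by their brightest probes. The PDK2 log2 ratio exceeded that of PDK1 by 0.78 ± 0.16 and that of PDK4 by 0.96 ± 0.24. Both differences held in 10 of 10 animals. In exact two-sided sign-flip permutation tests over the 10 animals, adjusted over 3 pairs, both gave p = 0.00293, and 0.00195 is the smallest unadjusted p the design allows. With all probes of a gene averaged, PDK2 exceeded PDK1 by 0.40, and from the scanner software's processed signals PDK2 exceeded PDK4 by 1.45. PDK2 probe 2, at 0.19, lay nearer than probe 1 to the called PDK1 probes 4 and 5, at 0.12 and 0.15. The strand of the PDK1 probes and of PDK4 probe 1 was not read. The part of probe strand in these differences was not tested. PDK1 exceeded PDK4 by 0.17 ± 0.21 in 9 of 10 animals (exact permutation test, adjusted p = 0.0332). That last difference was lost on the arrays with HFD in Cy5, where it was 0.08 (exact permutation test, adjusted p = 0.402). It was also lost without the 6 arrays of animals 5 to 10 with HFD in Cy3, where it was 0.10 (exact permutation test, adjusted p = 0.242). In that test animals 5 to 10 kept only their array with HFD in Cy5. It therefore overlaps with the Cy5 result, and a dye effect does not cancel in those animals. The PDK1 minus PDK4 difference was lost too when any one of animals 1, 4, 5, 9 or 10 was left out (exact permutation test, adjusted p = 0.0664), with values between 0.14 and 0.17. It was larger from the processed signals (0.53), the authors' deposited table (0.47) and the mean of all probes (0.45).

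**Figure D4:**
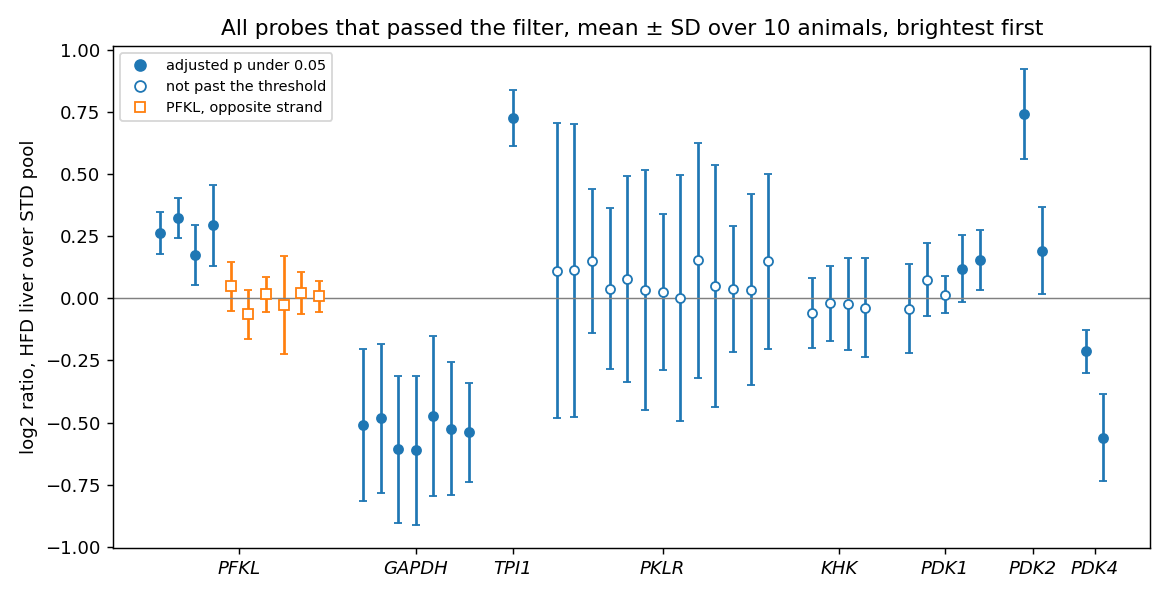
Mean log2 ratio, HFD over pool, ± SD over the 10 animals (vertical axis) for the 44 probes of the 8 genes that passed the filter, ordered from bright to dim within a gene. Filled symbols passed the test, open ones did not, and the orange squares are the 6 PFKL probes of the opposite strand, which lie at 0 while the 4 others lie above it.

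The wider pathways are given from lists of genes, by the brightest probe of each, whatever its strand. Of 23 listed glycolytic enzymes 19 were tested, 9 rose and 4 fell, with a median of 0.10. LDHB, a lactate dehydrogenase subunit, rose to 0.89 ± 0.16 on 6 of 6 probes, whereas LDHA, the other subunit, fell to -0.48 ± 0.14 on 6 of 6.

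Of 8 listed regulators of glycolysis 7 were tested, 3 rose and 1 fell, with a median of 0.07. MLXIPL, the carbohydrate-sensing transcription factor, rose to 0.59 ± 0.16 on 8 of 8 probes. GCKR, which encodes a regulator of glucose phosphorylation in liver, rose to 0.44 ± 0.16, and PFKFB2, which sets the level of the activator of phosphofructokinase, to 0.11 ± 0.09. MLX, the dimer partner of MLXIPL, fell to -0.14 ± 0.06. MLXIPL was higher in 10 of 10 animals, while PKLR was higher in 7. The strand of the MLXIPL probes was not read, and the printed PKLR probes ran against the coding direction by the reading above. Whether both counts describe the messenger was not tested.

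Of 7 listed genes of fructose use 6 were tested, 1 rose and 4 fell, with a median of -0.28. SLC2A5, the fructose transporter, rose to 0.50 ± 0.19, though 2 of its 4 probes passed. GLYCTK, the glycerate kinase of fructose breakdown, fell to -0.38 ± 0.22, and AKR1B1, the aldose reductase of the polyol route, to -0.33 ± 0.12. SORD, the sorbitol dehydrogenase, also fell, at -0.26 ± 0.39, and is named outside the rule after its value was seen. KHK did not pass.

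Of 9 listed sugar and pyruvate carriers 7 were tested, 3 rose and 1 fell, with a median of -0.02. SLC2A2, the glucose carrier of hepatocytes, was at 0.61 ± 0.25 on its brightest probe, but 3 of its 7 probes were called lower and 4 higher. SLC2A9, a urate and hexose carrier, was at 0.43 ± 0.18, with 5 of 7 probes called higher and 1 lower. SLC16A1, a carrier of lactate and pyruvate, rose to 0.16 ± 0.11, and SLC2A1, the ubiquitous glucose carrier, fell to -0.27 ± 0.13.

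Of the 12 listed genes of the pyruvate dehydrogenase complex and its regulators all 12 were tested, 5 rose and 1 fell, with a median of 0.11. Beside PDK2, DLAT and DLD, which encode the acetyltransferase and the dihydrolipoamide dehydrogenase of the complex, rose to 0.32 ± 0.17 and 0.25 ± 0.14. PDK4 was the gene that fell. PDK3, the remaining kinase, stood at 0.22 ± 0.43 and did not pass (adjusted p = 0.123 in limma). Over all lists, with each gene once, 50 of 58 genes were tested, 21 rose and 10 fell, beside 31.2% and 28.7% of all tested genes.

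**Figure D5:**
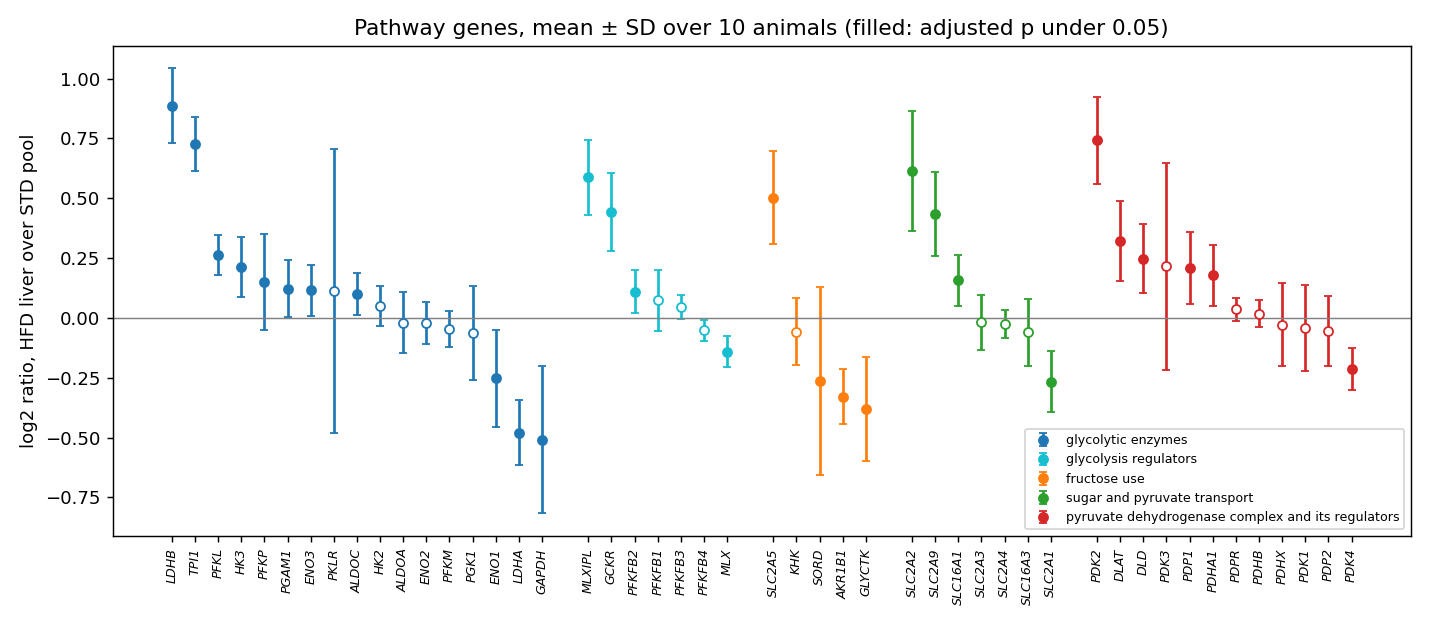
Mean log2 ratio, HFD over pool, ± SD over the 10 animals (vertical axis) for tested genes of the 5 pathway lists, sorted within each list, without those not reported here. Filled points passed the test, and each list but that of fructose use has more filled points above 0 than below.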

How the data were processed

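Liver RNA (100 ng) was labelled with a whole-transcript kit, per the labels' protocols, and each HFD sample was hybridised against the STD pool in both dye orientations. The dye of an array was read from its name as deposited, and the direction of all ratios rests on it. The authors' deposited log2 ratios ran the same way, correlating with the red over green ratio at 0.54 to 0.87 on arrays with HFD in Cy5 and at -0.91 to -0.77 on those with HFD in Cy3. Their medians per animal lay between -0.0144 and 0.0185, and their slope against the ratios computed here between 1.10 and 1.57, so that their exact scale stays unknown. The submitters' processing notes name limma for them.

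Spot intensities and local background were deposited as made by Agilent Feature Extraction 10.7.3.1, per the file headers. Here intensities were corrected with normexp (offset 50), normalised by loess within each array, turned to log2 HFD over pool and averaged per animal in limma 3.58.1 under R 4.3.3. Probes had to be well above background in either RNA on at least 10 of 20 arrays with a value on all, and 44 of 45 member probes passed. The mean ratio was tested against 0 with lmFit and eBayes after the script was tested on simulated data. Slides (7) and scan sessions (3) each hold this 1 comparison. Correlations used Python 3.11.15.

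The genes named are all members with their probes, up to 3 called genes with the highest and 3 with the lowest mean in each pathway list, and the 3 genes nearest in profile to the 3 members with the largest change. Not every gene under this rule is reported here. Members and lists were chosen with earlier results of these data known. Gene names are those of the array design, and all 8 symbols occur in the RefSeq annotation of BCM_Maur_2.0. Alternatives covered background, normalisation, the authors' ratios, filters, probe choice, variance model, dye, arrays, slide, scan session and leaving out animals.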

Additional observations from a re-analysis of the deposited data

How the results depend on the processing

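PFKL, GAPDH, TPI1 and PDK2 kept their direction and passed the test in all 26 alternative settings, with ranges of 0.11 to 0.34, -0.55 to -0.35, 0.62 to 0.83 and 0.47 to 1.01. PDK4 did so in all 25 in which it was tested, from -0.56 to -0.16, and was not tested where a probe had to be above background in both RNAs on all arrays. PKLR passed in 1 setting, the 14 arrays (0.41, adjusted p = 0.00473 in limma). KHK passed on the arrays with HFD in Cy5 (-0.16, adjusted p = 0.00753 in limma) and with the slide as a random block (-0.0624, adjusted p = 0.0470 in limma), and PDK1 on the arrays with HFD in Cy5 (-0.16, adjusted p = 0.0188 in limma). The fit by slide counts both arrays of an animal as independent. With the animal as the random block KHK did not pass (adjusted p = 0.144 in limma). The PDK1 minus PDK4 difference no longer passed on the arrays with HFD in Cy5 (0.0778), the 14 arrays (0.10) or scan session 3 (0.13), and lay between 0.14 and 0.21 without each animal in turn, but was larger and passed with processed signals (0.53), the authors' ratios (0.47) and the mean of all probes (0.45). The number of genes called lower was 2529 on the 14 arrays, and within scan session 3 the counts were 2735 higher and 2354 lower, with fewer arrays in each. The PDK2 differences passed wherever they were computed, with PDK2 minus PDK1 between 0.40 and 0.93 and PDK2 minus PDK4 between 0.71 and 1.45. The PDK differences were not computed for the fits to single arrays with all 20 arrays or for the trended variance model. The causes of these changes were not tested. The scan session as a fixed block and the split of PFKL by strand were added after seeing the data. No paired analysis was possible because the labels number the replicates of the HFD group alone and the pool has none, so that no block joins animals of both diets; genes and probes were compared within animals as given for PFKL and the PDK genes. Signal over background limits PDK4 and the dimmer PFKL probes.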
